A study of Mus musculus with 6 samples.

Results

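The genes described here are 9 transcription regulators of glial fate: the basic helix-loop-helix (bHLH) factors Olig1 and Olig2, the Hes repressors Hes1, Hes5 and Hes6, and the Id inhibitors Id1, Id2, Id3 and Id4. They were taken by symbol from the gene lists deposited with the libraries, where all 9 were found among 32285 genes. They were left out of the genes used to cluster the nuclei and of the markers used to name cell classes. Their RNA and the accessibility of their promoters were compared between classes of nuclei, above all between tumor glia and host glia.

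The nuclei came from frozen brain lesions of C57BL/6J mice, which were made by electroporating plasmids into the ganglionic eminences of embryos. All libraries carry overexpression of Foxr2, a forkhead factor, from a piggyBac vector with the ubiquitous CAG promoter, and a reporter vector for Akaluc luciferase and GFP. In Foxr2 p53LOF, a CRISPR guide against Trp53 was delivered as well, whose edits were not read here, so that the genotypes differ by loss of p53 and share Foxr2. RNA and open chromatin (ATAC-seq) were read from the same nuclei by 10x Multiome in 3 libraries: Foxr2 p53LOF replicate 1 and Foxr2 alone replicates 1 and 2. Counts of Foxr2 alone replicate 2 were not analysed here, and this library entered through its peaks. The labels give no age. Foxr2 p53LOF is a single tumor sample, and the study describes lesions of Foxr2 alone as nonproliferative.

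Olig2 specifies oligodendrocyte precursor cells (OPCs) and stays on in the lineage, and Olig1 acts beside it and in myelination. Hes1 and Hes5 are classical targets of Notch signaling, in which the cleaved receptor joins the DNA-binding protein RBPJ, and they repress proneural genes, whereas Hes6 antagonizes Hes1. Id proteins have no DNA-binding domain of their own, hold E proteins away from bHLH factors, and are targets of bone morphogenetic protein (BMP) signaling in astrocytes and neural stem cells.

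Filtering kept 8359 nuclei in Foxr2 p53LOF and 8316 in replicate 1 of Foxr2 alone, with medians of 5527 and 3637 unique molecular identifiers (UMIs, each a captured RNA molecule). Joint clustering gave 22 clusters. A glia-like cluster of Foxr2 p53LOF was called tumor where the share of its nuclei with an ATAC count on the Akaluc-GFP vector was at least 3 times the share in immune-like nuclei, 1.26%. A COP-like cluster (committed oligodendrocyte precursor) of 1233 nuclei had a vector share of 27.5% and an astrocyte-like cluster of 1227 nuclei one of 29.3%. A further 46 astrocyte-like nuclei passed on 4 vector-bearing nuclei (8.70%, exact 95% interval 2.42 to 20.8%). Tumor glia were thus 2506 nuclei, 1233 OPC/COP-like and 1273 astrocyte-like. Host glia of the same library were 1526 oligodendrocyte-like, 95 OPC-like and 69 astrocyte-like nuclei, with vector shares of 0.787%, 2.11% and 1.56% in the cluster that held most of each.

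The tumor classes carried the markers of their names unevenly, and some went against the names. Tumor OPC/COP-like nuclei had Bcas1, a gene of newly committed oligodendrocytes, at 1576 CPM (UMIs of the gene per 1000000 UMIs of the class) and Enpp6 at 383, against 829 and 27.2 in host OPC-like nuclei. Their Pdgfra, the growth factor receptor of OPCs, was at 165 against 1223 CPM and their Gpr17, a receptor of committed precursors, at 21.9 against 142 CPM. Tumor astrocyte-like nuclei had the glutamate transporter Slc1a3 at 1503 CPM against 2121 in host astrocyte-like nuclei, and the gap junction gene Gja1 at 26.3 against 713 CPM. Each marker list was also scored by its median log2 ratio over the lower quartile of the clusters. The large tumor astrocyte-like cluster scored 3.76 for astrocyte and 3.22 for OPC markers, against 6.81 and 1.90 in the main host astrocyte-like cluster. The tumor COP-like cluster scored 4.03 for OPC, 4.55 for COP and 3.95 for oligodendrocyte markers, against 6.43, 5.37 and 1.59 in the OPC-like cluster of both libraries. Interferon-induced genes (Gbp2, Gbp4, Iigp1) were among the leading genes of both large tumor clusters. Foxr2 RNA was at 92.5 CPM in tumor OPC/COP-like and 72.7 in tumor astrocyte-like nuclei, and still at 30.2 in immune-like and 28.0 in host oligodendrocyte-like nuclei. Levels in immune-like nuclei are given below beside the others. They were not taken as background for the genes whose promoters were open there. These were Hes1, at 68.3 ATAC counts per 1000000 counts in peaks, Hes6 at 62.4, Id1 at 35.3, Id2 at 82.8 and Id3 at 40.3. Whether the UMIs of these genes came from the immune-like nuclei themselves was not tested.

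With 1 library per genotype, nuclei are not replicates and no test was made. Ratios are of CPM from summed UMIs, and intervals are exact 95% intervals that cover counting error alone. A gene was counted as higher or lower past 2-fold, among genes with at least 10 CPM in 1 of the groups compared. In tumor glia against host glia, 7 of the 9 genes reached that level: Hes1, Id1, Id2, Id3 and Id4 were higher, Olig1 was lower and Olig2 was near equal. Of all 10532 genes compared, 24.9% were higher and 10.6% lower by as much. The median log2 ratio was 0.36 over all genes and 1.51 over the 9. The host side was mostly oligodendrocyte-like and shallower, with a median of 2511 UMIs per nucleus against 7853, and the part of depth in these ratios was not tested. Classes of like name are therefore set against each other below, as like classes. Their markers differed, as given above, and the part of this in the ratios was not tested. The direction for Hes1 and the Id genes also rests on the vector rule. With tumor clusters called by Foxr2 RNA instead, the large astrocyte-like cluster went to the host side. The log2 ratios were then -0.38 for Hes1, -0.63 for Id1, -0.33 for Id2, -0.51 for Id3 and -1.28 for Id4. With the libraries clustered separately, fewer of the 9 genes were past 2-fold, as counted in the last section.

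**Figure D1:**
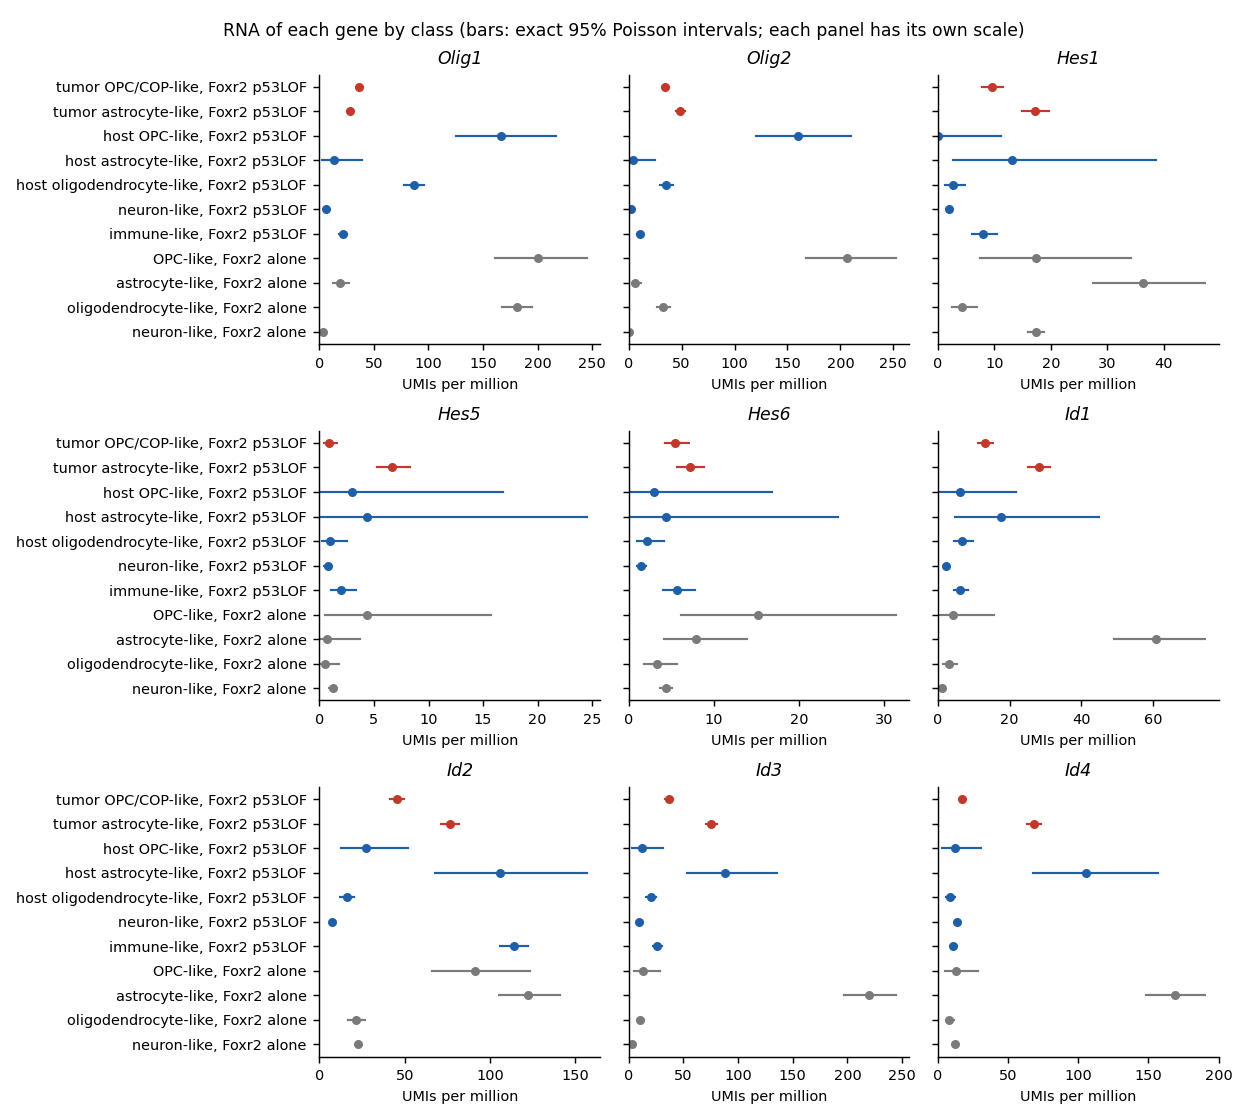
RNA level of each gene in CPM (x axis, own scale in each panel) in the classes of both libraries. Points are summed UMIs over summed depth (red, tumor; blue, other nuclei of Foxr2 p53LOF; gray, Foxr2 alone) and bars are exact 95% Poisson intervals. Among the glial classes of each library, Olig2 is highest in OPC-like nuclei, and Id1, Id3 and Id4 in astrocyte-like nuclei. Olig1 is highest in OPC-like nuclei in Foxr2 p53LOF. In Foxr2 alone, its OPC-like (200 CPM) and oligodendrocyte-like (181 CPM) nuclei have intervals that overlap.

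Olig2 lies on chromosome 16 at 91225457-91228677 (mm10, plus strand) and Olig1 at 91269772-91271933 on the same strand, with 44315 bases between their starts. Olig2 was at 34.7 (31.3 to 38.3) CPM in tumor OPC/COP-like and 48.9 (45.0 to 53.1) in tumor astrocyte-like nuclei. In the host classes it was at 160.4 (120.1 to 209.8) CPM in OPC-like, 35.6 (30.02 to 41.9) in oligodendrocyte-like and 4.40 (0.111 to 24.5) in astrocyte-like nuclei, the last from 1 UMI. Host Olig2 was thus highest in OPC-like and lowest in astrocyte-like nuclei. In the tumor, the astrocyte-like nuclei, whose large cluster also carried OPC markers, held more than the OPC/COP-like ones, with intervals that do not overlap. When tumor clusters were called by Foxr2 RNA, which leaves the small astrocyte-like cluster, the log2 ratio of Olig2 between the tumor classes was 0.02. Neuron-like nuclei were at 2.26 CPM and immune-like nuclei at 10.5. In Foxr2 alone, Olig2 was at 207 CPM in OPC-like, 32.6 in oligodendrocyte-like and 5.95 in astrocyte-like nuclei.

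Olig1 was at 36.5 (33.1 to 40.2) CPM in tumor OPC/COP-like and 27.8 (24.9 to 31.0) in tumor astrocyte-like nuclei. Host OPC-like nuclei were at 166 (125 to 217) CPM and host oligodendrocyte-like nuclei at 86.6 (77.8 to 96.1), both above the tumor classes. Host astrocyte-like nuclei were at 13.2 CPM (3 UMIs), neuron-like nuclei at 5.91 and immune-like nuclei at 21.3 (17.9 to 25.1). The tumor astrocyte-like level of Olig1 thus lay close to that of immune-like nuclei, with intervals that just touch, while that of Olig2 was well above it. In Foxr2 alone, Olig1 was at 200 (161 to 245) CPM in OPC-like, 181 (168 to 195) in oligodendrocyte-like and 18.5 in astrocyte-like nuclei.

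Against host OPC-like nuclei, tumor OPC/COP-like nuclei were lower in Olig1, with a log2 ratio of -2.19 (-2.60 to -1.75), and in Olig2, with -2.21 (-2.63 to -1.77). Of 10770 genes, 15.5% were at least 2-fold lower and 27.5% higher, with a median of 0.36. Against OPC-like nuclei of Foxr2 alone the ratios were -2.45 (-2.78 to -2.11) and -2.57 (-2.90 to -2.24), beside 24.1% of 11500 genes lower. Against host oligodendrocyte-like nuclei, a comparison added after values were seen, Olig2 was at -0.04 (-0.31 to 0.25) and Olig1 at -1.24 (-1.45 to -1.04), beside 10.3% of 10301 genes lower and 27.3% higher. Olig2 of the tumor OPC/COP-like nuclei was thus at the level of host oligodendrocyte-like nuclei within counting error, and Olig1 was below it.

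Between astrocyte-like nuclei the direction was the opposite. Olig2 was higher in the tumor class than in the host class of the same library, with a log2 ratio of 3.48 (0.99 to 8.78) that rests on the single host UMI. It was at 49.3 (45.4 to 53.6) CPM in the large and 34.3 (17.1 to 61.3) in the small tumor cluster, of which the small one had A2m, Gja1 and Acss3 among its leading genes, as did the host astrocyte-like cluster. Against the 426 astrocyte-like nuclei of Foxr2 alone it was 3.04 (2.10 to 4.18), from 582 against 9 UMIs. Olig1 was past 2-fold in the same library, at 1.08 (-0.48 to 3.36), with an interval that includes 0, and at 0.59 (0.03 to 1.2) against Foxr2 alone. Of all genes, 25.5% of 10818 were at least 2-fold higher and 16.6% lower within the library, and 24% and 27.5% of 11560 against Foxr2 alone. With every nucleus thinned to 1000 UMIs, 5.83% of 1270 tumor astrocyte-like nuclei had an Olig2 UMI (28.3% unthinned), against 1.06% of 1787 immune-like nuclei (3.57% unthinned), at median depths of 8053 and 2670 UMIs. With tumor clusters called by Foxr2 RNA, which left 46 tumor astrocyte-like nuclei, the Olig2 ratio was -0.50. With the libraries clustered separately, the Olig1 ratio was -1.2 and the Olig2 ratio 0.88.

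The number of Olig1 UMIs per Olig2 UMI does not depend on scaling. It was 1.05 (0.915 to 1.21) in tumor OPC/COP-like, 1.04 (0.699 to 1.54) in host OPC-like and 0.968 (0.719 to 1.30) in Foxr2 alone OPC-like nuclei. Oligodendrocyte-like nuclei carried more Olig1, at 2.43 (2.00 to 2.97) in Foxr2 p53LOF and 5.55 (4.6 to 6.76) in Foxr2 alone. Of the classes, tumor astrocyte-like nuclei alone had an interval wholly below 1, at 0.569 (0.495 to 0.652). The large cluster carried that ratio, with 303 Olig1 and 571 Olig2 UMIs, whereas the 46 nuclei of the small tumor cluster had 28 and 11. Immune-like nuclei, at 2.03 (1.51 to 2.74), and neuron-like nuclei, at 2.61 (1.91 to 3.61), had intervals that overlap that of the host oligodendrocyte-like nuclei, and Foxr2 alone astrocyte-like nuclei were at 3.11 (1.43 to 7.49).

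**Figure D2:**
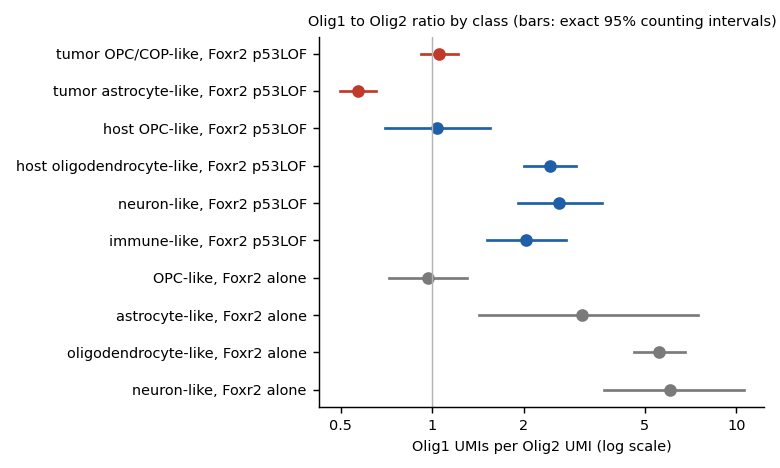
Olig1 UMIs per Olig2 UMI (x axis, log scale) in classes of both libraries, with exact 95% counting intervals as bars. The OPC-like classes and the tumor OPC/COP-like nuclei lie near 1, the oligodendrocyte-like nuclei above 2, and the tumor astrocyte-like nuclei at 0.569.

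Promoter accessibility of both Olig genes was also lower in the OPC comparison. Promoter values are ATAC CPM, the counts per 1000000 counts in peaks, summed over peaks within 1000 bases of the annotated start. For Hes1 (30065340) and Hes6 (91413222), the start used lies inside the gene span given below. Olig1, Hes1, Hes5, Hes6 and Id1 had 2 such peaks, which did not always go the same way. Olig2 was at 37.2 and Olig1 at 45.1 in tumor OPC/COP-like nuclei, against 75.3 and 100.4 in host OPC-like nuclei. The log2 ratios of -1.02 (-1.46 to -0.55) and -1.16 (-1.54 to -0.75) were past 2-fold lower, as were 8.92% of 15327 promoters, while 12.1% were higher. For Olig1, the peak over the start was at -1.70 (-2.10 to -1.27) and the peak centered 1210 bases downstream at 1.27 (-0.10 to 3.16), from 4 host counts. In astrocyte-like nuclei the Olig2 promoter was at 50.02 in tumor and 48.1 in host nuclei, a log2 ratio of 0.06 (-0.58 to 0.78). The host value rests on 20 ATAC counts and the host RNA on 1 UMI. Within the library, a promoter difference beside the higher Olig2 RNA of tumor astrocyte-like nuclei was thus not detectable at this depth. In astrocyte-like nuclei of Foxr2 alone, the Olig2 promoter was lower than in the tumor class, at 15.4 from 55 counts. Between host nuclei and Foxr2 alone it was at 75.3 and 73.5 in OPC-like, and at 59.9 and 37.02 in oligodendrocyte-like nuclei. Peaks were listed per library, and promoter ratios between libraries were not computed. In Foxr2 p53LOF, immune-like nuclei were at 6.52 and neuron-like nuclei at 3.07.

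Of the 20 peaks within 50000 bases of the Olig2 start, 14 reached 10 ATAC CPM in tumor OPC/COP-like or host OPC-like nuclei, and 9 of these were at least 2-fold lower in the tumor and 1 higher. Over all 35911 peaks, 24% were lower and 24.6% higher. The peaks named here were chosen after their values were seen. The peak centered 8230 bases downstream of the start (chr16:91233231-91234143) was at 121 ATAC CPM in host OPC-like nuclei, 12.4 in tumor OPC/COP-like, 15.5 in tumor astrocyte-like and 8.26 in host oligodendrocyte-like nuclei. Its log2 ratio of tumor OPC/COP-like over host OPC-like nuclei was -3.28 (-3.68 to -2.87), from 187 against 72 counts. The peak at -33676 bases, upstream of the start, was at 107 in host OPC-like and 20.3 in tumor OPC/COP-like nuclei, a log2 ratio of -2.40 (-2.79 to -1.99). The peaks 37593 and 40754 bases downstream, which lie between the genes, had ratios of -2.52 (-3.02 to -1.99) and -3.05 (-3.53 to -2.56). These last peaks were also past 2-fold lower in tumor OPC/COP-like than in tumor astrocyte-like nuclei, at 11.7 against 34.4 and 9.89 against 35.0 ATAC CPM. Of 13 peaks that reached 10 ATAC CPM in 1 of the tumor classes, these were the 2 lower ones. The peak 21070 bases downstream was the 1 higher, at 14.3 against 6.68. Over all 32785 peaks, 12.7% were lower and 12.7% higher.

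**Figure D3:**
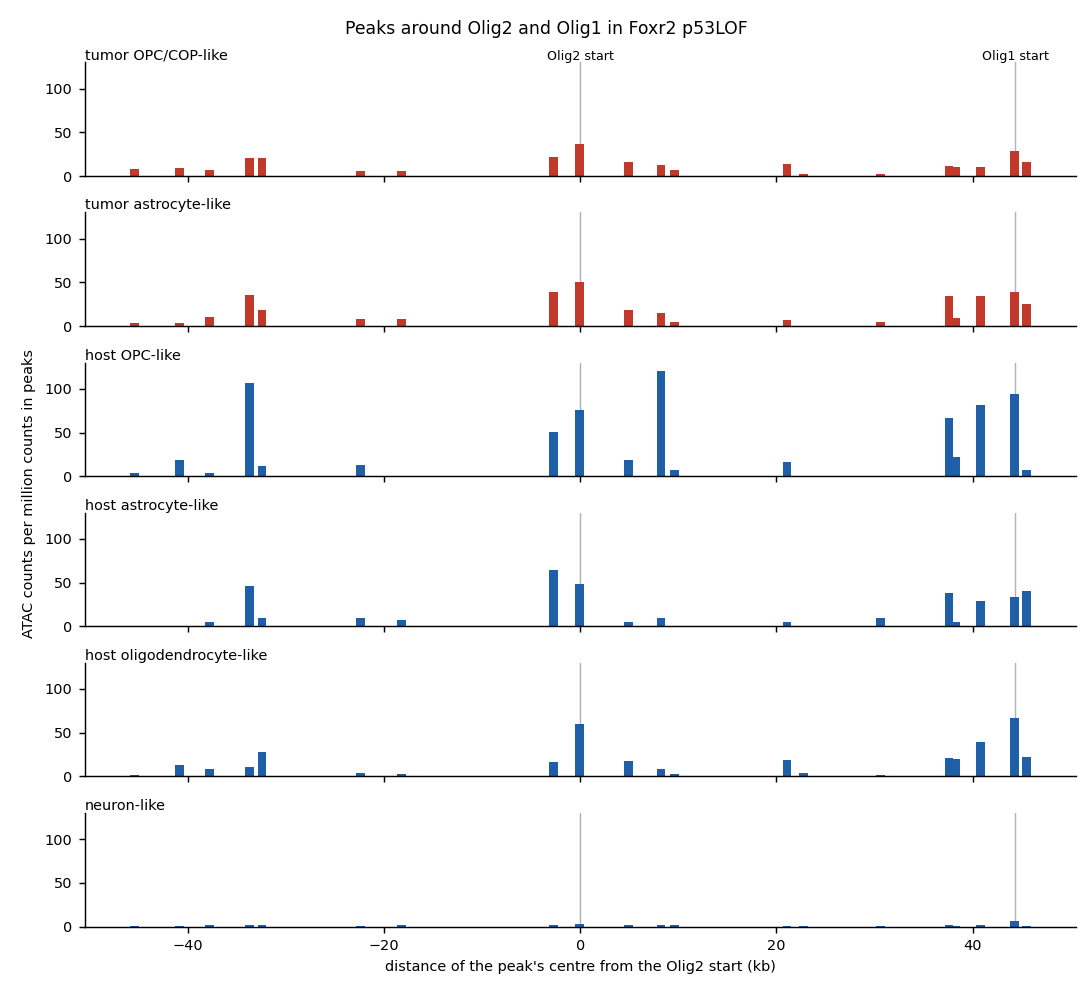
ATAC counts per 1000000 counts in peaks (y axis) of the 20 peaks within 50000 bases of the Olig2 start, at the distance of each peak's centre from that start (x axis), in 6 classes of Foxr2 p53LOF. The peak 8230 bases downstream reaches 121 in host OPC-like nuclei and 12.4 in tumor OPC/COP-like nuclei.

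Hes5 and Id4 showed the widest RNA ratios between the tumor classes, and their promoters are shown for the Notch and BMP elements that they hold. They are the 250 bases before the start that RefSeq annotates (GRCm38.p6, the mm10 build), 5′ to 3′. For Id4 this is another start than the one used for its location and promoter peaks. In the set of promoter sequences used here, Olig2, Hes5, Hes6, Id2, Id3 and Id4 had an entry, and Olig1, Hes1 and Id1 had none. Capitals mark matches on either strand to the RBPJ core TGGGAA, the N-box CACNAG bound by Hes proteins, the E-box CANNTG bound by bHLH factors, and GGCGCC, an element bound by BMP-responsive SMAD proteins.
Hes5 (chr4:154960673-154960922, plus strand): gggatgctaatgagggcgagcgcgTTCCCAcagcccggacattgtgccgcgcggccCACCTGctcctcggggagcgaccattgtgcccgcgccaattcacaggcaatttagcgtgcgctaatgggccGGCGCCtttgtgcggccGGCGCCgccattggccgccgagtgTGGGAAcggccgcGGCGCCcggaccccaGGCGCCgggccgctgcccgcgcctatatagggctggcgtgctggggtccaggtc
Id4 (chr13:48260866-48261115, plus strand): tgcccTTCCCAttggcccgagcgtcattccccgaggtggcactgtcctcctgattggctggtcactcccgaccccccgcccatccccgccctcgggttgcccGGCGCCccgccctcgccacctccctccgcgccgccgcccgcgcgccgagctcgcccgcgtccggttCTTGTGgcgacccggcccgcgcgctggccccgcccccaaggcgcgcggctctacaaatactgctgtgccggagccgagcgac

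The Hes5 sequence held 2 RBPJ core matches, 1 E-box and 4 GGCGCC matches, and the Id4 sequence 1 RBPJ core, 1 N-box and 1 GGCGCC match. Of the sequences not shown, Olig2 held 2 GGCGCC matches, and Id2 held 1 E-box and 1 GGCGCC match. Hes6 held 3 E-boxes in 1 entry, and 1 N-box and 1 E-box in the other. Id3, which was past 2-fold between the tumor classes in RNA, held no match. Whether the elements go with the RNA ratios was not tested. Of 32851 promoters of that length, 21.6% held an RBPJ core, 36.7% an N-box, 66.2% an E-box and 9.59% GGCGCC. A match says that the letters are present, and binding was not measured.

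Hes1 (chromosome 16, 30064384-30067796, plus strand) was at 9.56 (7.84 to 11.5) CPM in tumor OPC/COP-like and 17.2 (15.0 to 19.8) in tumor astrocyte-like nuclei. Host oligodendrocyte-like nuclei were at 2.70 (1.35 to 4.83) CPM and host astrocyte-like nuclei at 13.2 (2.72 to 38.6). The host OPC-like nuclei had 0 UMIs, with an exact interval up to 11.2 CPM. The interval of the log2 ratio of tumor OPC/COP-like over host OPC-like nuclei begins at -0.25, so that equal levels lie within counting error. Tumor over host glia gave a log2 ratio of 2.16 (1.39 to 3.05), from 313 against 14 UMIs, but between astrocyte-like nuclei it was 0.39 (-1.18 to 2.67). The tumor over host ratio of Hes1 was therefore wide against oligodendrocyte-like nuclei and within counting error against astrocyte-like nuclei. Immune-like nuclei, at 8.08 CPM, had about as much Hes1 as tumor OPC/COP-like nuclei.

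In Foxr2 alone, Hes1 was at 36.4 (27.4 to 47.4) CPM in astrocyte-like nuclei, so that tumor astrocyte-like nuclei were past 2-fold lower than these, at -1.08 (-1.51 to -0.62). It was also at 17.4 CPM in neuron-like nuclei of Foxr2 alone, against 1.94 in Foxr2 p53LOF. Of these 575 UMIs, 461 came from a cluster of 939 nuclei with Slc17a7, the vesicular glutamate transporter of cortical neurons, among its leading genes, where Hes1 was at 49.6 (45.2 to 54.3) CPM.

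Hes5 (chromosome 4, 154960923-154962371, plus strand) was sparse in RNA. It was at 6.64 (5.26 to 8.28) CPM in tumor astrocyte-like nuclei (79 UMIs) and 0.885 (0.424 to 1.63) in tumor OPC/COP-like nuclei (10 UMIs), a log2 ratio of -2.91 (-4.02 to -1.95) for the latter over the former. This was the widest ratio of the 9 genes between the tumor classes, although Hes5 did not reach 10 CPM. Host OPC-like and host astrocyte-like nuclei had 1 UMI each, and immune-like nuclei were at 1.95 CPM. Astrocyte-like nuclei of Foxr2 alone had 1 UMI, a log2 ratio of 3.33 (0.81 to 8.65) for tumor astrocyte-like nuclei over them. Within the library the ratio over host astrocyte-like nuclei was 0.59 (-1.93 to 5.92), so that a difference was not detectable at this depth.

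The Hes5 promoter was likewise more accessible in tumor astrocyte-like nuclei, at 37.8 against 21.6 ATAC CPM in tumor OPC/COP-like nuclei, a log2 ratio of -0.80 (-1.01 to -0.60) for the latter over the former. None of the 9 promoters was past 2-fold between the tumor classes as a sum over its peaks, where 2.62% of 15053 promoters were higher and 2.43% lower. The peak over the Hes5 start was itself past 2-fold lower in OPC/COP-like nuclei, at -1.39 (-1.65 to -1.13), and its second peak was at 0.41 (0.05 to 0.78). The second peak of Hes6 was also lower, at -1.61 (-1.89 to -1.34). Host OPC-like nuclei, at 65.3, and host astrocyte-like nuclei, at 55.3, had the higher values, and the log2 ratio of tumor astrocyte-like over host astrocyte-like nuclei was -0.55 (-1.15 to 0.12), with an interval that includes 0. Peaks over the Hes5 start were called in Foxr2 p53LOF (chr4:154960500-154961181) and Foxr2 alone replicate 2 (chr4:154960519-154961060), and none lay within 1000 bases of it in Foxr2 alone replicate 1. The other 8 genes had a promoter peak in all 3 libraries.

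Hes6 (chromosome 1, 91411483-91414038, minus strand) was at 5.49 (4.21 to 7.03) CPM in tumor OPC/COP-like and 7.15 (5.71 to 8.84) in tumor astrocyte-like nuclei, a log2 ratio of -0.38 (-0.88 to 0.11). Host oligodendrocyte-like nuclei were at 2.21 CPM and immune-like nuclei at 5.69, and tumor over host glia gave 1.42 (0.54 to 2.45). OPC-like nuclei of Foxr2 alone were at 15.2 (6.12 to 31.4) CPM (7 UMIs), and tumor OPC/COP-like nuclei were past 2-fold lower than these, at -1.47 (-2.60 to -0.10).

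All 4 Id genes were higher in tumor astrocyte-like than in tumor OPC/COP-like nuclei, with intervals that exclude equality. Id4 (chromosome 13, 48261228-48266026, plus strand) was at 17.3 (14.9 to 19.9) CPM in tumor OPC/COP-like and 68.5 (63.8 to 73.3) in tumor astrocyte-like nuclei, a log2 ratio of -1.99 (-2.22 to -1.76) for the former over the latter. Id1 gave -1.11 (-1.39 to -0.82), Id3 -1.04 (-1.22 to -0.87) and Id2 -0.75 (-0.91 to -0.59). Id1, Id3 and Id4 were thus past 2-fold lower in OPC/COP-like nuclei, as were 10% of 10550 genes, and 8.68% were higher. Olig1 (0.39) was higher and Olig2 (-0.50) and Hes1 (-0.85) were lower by less than 2-fold. With tumor clusters called by Foxr2 RNA, the Olig1 ratio was -1.26, past 2-fold in the other direction. Over the alternatives run, the ratio of Id4 ranged from -3.2 to -1.76 and stayed past 2-fold. Those of Id1 (-1.93 to -0.55) and Id3 (-2.38 to -0.69) stayed negative but not always past 2-fold.

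In the OPC comparison, Id1 and Id3 were past 2-fold higher than in host nuclei of the same library, beside 27.5% of 10770 genes, and of the 4 Id genes the interval excludes 0 for Id3 alone. These were 2 of the 6 genes compared, near the share of all genes. Id3 (chromosome 4, 136143497-136145755, plus strand) was at 36.5 CPM in tumor OPC/COP-like and 12.1 in host OPC-like nuclei, a log2 ratio of 1.59 (0.23 to 3.48), and 1.49 (0.35 to 2.94) against OPC-like nuclei of Foxr2 alone. Id1 (chromosome 2, 152736251-152737410, plus strand) was at 13.1 against 6.05 CPM, a ratio of 1.11 (-0.76 to 4.17) from 2 host UMIs. Id2 (chromosome 12, 25093799-25097140, minus strand) was at 45.4 CPM against 27.2 in host and 91.3 in Foxr2 alone OPC-like nuclei, so that its ratios, 0.74 (-0.20 to 1.87) and -1.01 (-1.46 to -0.52), have opposite signs. Id4 was at 17.3 against 12.1 CPM, 0.51 (-0.87 to 2.40), and at 8.59 CPM in host oligodendrocyte-like nuclei. Immune-like nuclei, whose Id4 promoter was at 6.91 ATAC CPM, had 10.9 CPM of Id4 RNA, about the level of these host classes, and 6.29 CPM of Id1 RNA. Id3 in immune-like nuclei was at 26.3 CPM, between the tumor and the host OPC-like level.

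In astrocyte-like nuclei, no Id gene was past 2-fold within the library, and 3 were lower than in Foxr2 alone, where 27.5% of 11560 genes were lower. Id3 was at 75.3 (70.5 to 80.4) CPM in tumor, 88.0 (53.8 to 136) in host and 219.6 (197 to 245) in Foxr2 alone astrocyte-like nuclei. Id4 was at 68.5 (63.8 to 73.3), 106 (67.7 to 157) and 169 (149 to 191) CPM in the same order. Id1 was at 28.2 (25.2 to 31.4), 17.6 (4.80 to 45.1) and 60.9 (49.1 to 74.6) CPM. The intervals of the 4 log2 ratios within the library all included 0, with -0.63 (-1.21 to 0.03) for Id4 the farthest below it. The tumor clusters themselves differed, with Id3 at 72.2 (67.4 to 77.2) CPM in the large and 190.1 (145 to 244) in the small one, and Id4 at 66.0 (61.4 to 70.9) and 156 (116 to 205). With tumor clusters called by Foxr2 RNA, the ratio within the library was 1.39 for Id3 and 1.22 for Id4, and with nuclei of at least 1000 genes and 1000 peak counts it was 2.38 for Id1. Against Foxr2 alone, Id1 (-1.11), Id3 (-1.54) and Id4 (-1.30) were past 2-fold lower.

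Id3 and Id1 can be set against each other in the same way, with 2.79 (2.31 to 3.39) Id3 UMIs per Id1 UMI in tumor OPC/COP-like, 2.67 (2.36 to 3.04) in tumor astrocyte-like and 2.93 (1.89 to 4.67) in host oligodendrocyte-like nuclei. Foxr2 alone astrocyte-like nuclei were at 3.61 (2.86 to 4.6), with an interval that overlaps those of the tumor classes. Vascular nuclei of Foxr2 p53LOF were at 1.13 (0.532 to 2.44), with an interval that overlaps those of the tumor classes, and had Id1 at 55.5 (31.1 to 91.5) CPM. Id2 was highest in lymphocyte-like nuclei, where Id2 is known to be needed for innate lymphoid cells. It was at 382 (307 to 470.2) CPM in the lymphocyte-like cluster led by Gzmb, 126 (116 to 137) in the larger myeloid-like cluster and 114 (106 to 122) over all immune-like nuclei. Tumor astrocyte-like nuclei, at 76.4 CPM, were below the immune-like level of Id2.

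**Figure D4:**
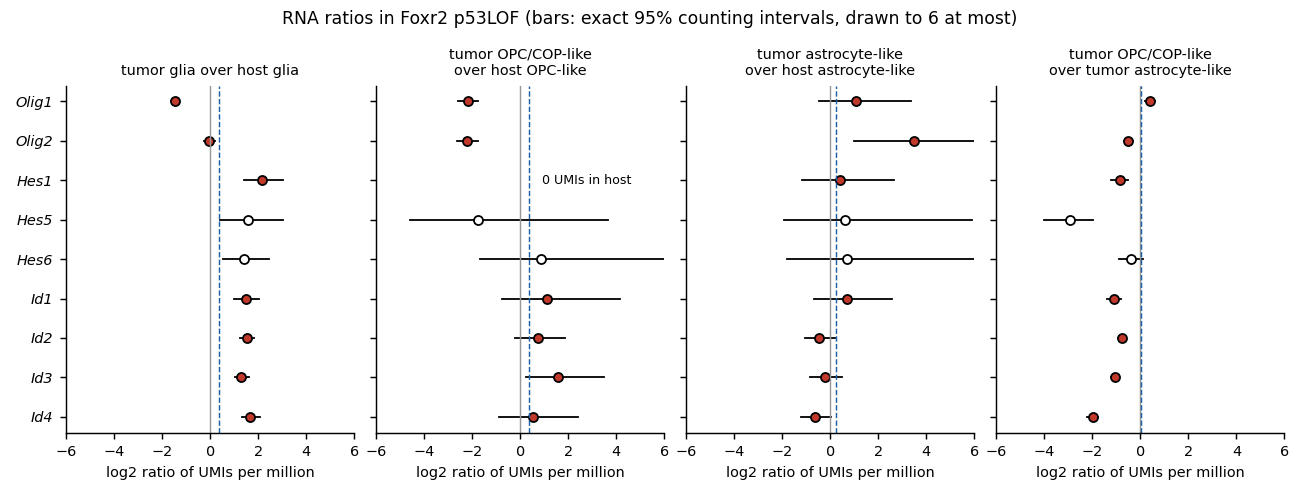
Log2 ratios of CPM (x axis) of the 9 genes in comparisons within Foxr2 p53LOF, with exact 95% counting intervals as bars. Filled points reached 10 CPM in 1 group, open points did not, bars are cut at 6, and the dashed line is the median of all genes. Id1 to Id4 lie right of 0 in tumor over host glia and left of 0 in tumor OPC/COP-like over tumor astrocyte-like nuclei.

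At the promoters, Hes1 and Id3 were past 2-fold higher in tumor than in host glia, with log2 ratios of 1.91 (1.67 to 2.15) and 1.25 (1.01 to 1.49). Of 14849 promoters, 13.9% were higher and 3.76% lower, with a median of -0.12. Hes5 (0.74), Hes6 (0.74), Id1 (0.86) and Id2 (0.24) were higher by less as sums over their peaks, and Olig1 (-0.70), Olig2 (-0.47) and Id4 (-0.26) were lower. The calls of Id1 and Hes6 depend on the sum. The peak over the Id1 start alone was past 2-fold higher, at 2.00 (1.63 to 2.40), and the peak centered upstream of it was at 0.29 (0.08 to 0.51). For Hes6, the peak over the start used (91413222) was at 0.40 (0.22 to 0.59). The other Hes6 peak, which lies just beyond the upstream end of the gene span (91414038), was at 1.99 (1.55 to 2.46). Id4 thus had more RNA (43.5 against 13.6 CPM) and a less accessible promoter (46.6 against 55.8 ATAC CPM) in tumor than in host glia. Of all promoters compared, 38.4% had a lower ratio. In astrocyte-like nuclei, the Id4 ratios of RNA and promoter were both negative, at -0.63 (-1.21 to 0.03) and -1.26 (-1.68 to -0.82). In the OPC comparison they were at 0.51 (-0.87 to 2.40) and -0.60 (-1.06 to -0.10). Both of these RNA intervals include 0. The Hes1 promoter was at 6.17 in host oligodendrocyte-like, 83.7 in host OPC-like and 132 in host astrocyte-like nuclei, with the tumor classes between these at 52.6 and 75.4. Against the like host class its ratio was negative, at -0.67 (-1.08 to -0.23) for OPC-like and -0.81 (-1.2 to -0.39) for astrocyte-like nuclei. Under the rule by Foxr2 RNA, no promoter of the 9 was past 2-fold.

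In the like-class comparisons, Hes5 was past 2-fold lower beside both Olig promoters in tumor OPC/COP-like nuclei, at -1.59 (-2.07 to -1.07) for the sum of its peaks. The peak over the Hes5 start was at -2.47 (-2.98 to -1.92) and the second peak at 2.60 (0.10 to 7.91), the latter from 1 host count. Id2 and Id4 were lower in tumor astrocyte-like nuclei, at -1.03 (-1.45 to -0.57) and -1.26 (-1.68 to -0.82), beside 8.64% of 14956 promoters lower and 15.5% higher. Of the nonzero ATAC counts, 80.7% were even, as when both ends of a fragment are counted, so the ATAC intervals are narrower than independent fragments would give. Of 6 peaks within 50000 bases of the Hes1 start that reached 10 ATAC CPM, all were at least 2-fold higher in tumor than in host glia, as were 23.4% of 32263 peaks, while 19% were lower. In tumor OPC/COP-like over host OPC-like nuclei, 2 of 7 were higher and 1 lower, beside 24.6% and 24% of all peaks. Around Id3, in tumor over host glia, 7 of 15 were higher, and around Olig2 0 of 13.

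**Figure D5:**
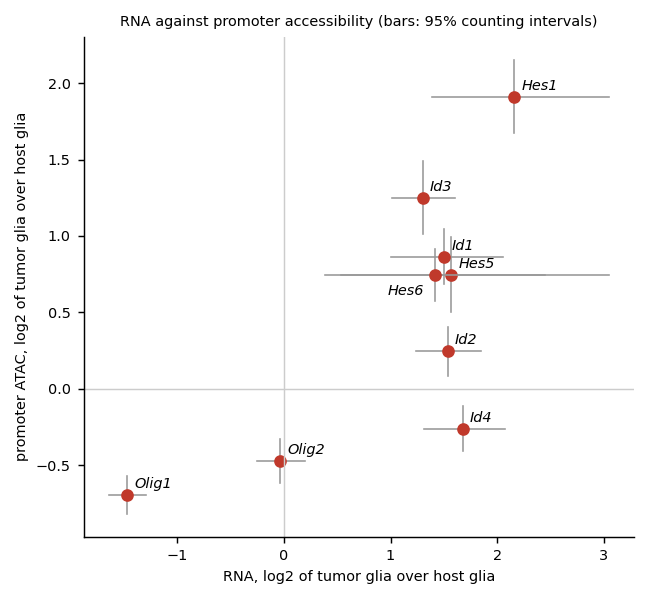
Log2 ratio of RNA (x axis) against log2 ratio of promoter ATAC counts (y axis) of the 9 genes in tumor over host glia, with exact 95% counting intervals as bars. Hes1 is highest on both axes, at 2.16 and 1.91, Olig1 is lowest on both, at -1.47 and -0.70, and Id4 is higher in RNA and lower in accessibility.

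Within tumor glia, none of the 7 genes that reached 10 CPM was past 2-fold between the 702 nuclei with a vector count of their own and the 1804 without, nor between the 887 nuclei with a UMI of the proliferation genes Mki67 or Top2a and the 1619 without. Of all genes, 0.0587% of 10227 were higher and 0.117% lower by the vector count, and 2.7% of 10301 higher and 0.243% lower by cycling. Olig2 was at 42.1 CPM with and 41.9 without a vector count, and at 41.2 CPM in cycling and 42.6 in other nuclei. None was past 2-fold within either tumor class. By the vector count, 0.326% of genes were higher and 0.336% lower in OPC/COP-like and 0.0892% and 0.624% in astrocyte-like nuclei, and by cycling 3.27% and 0.697% and 2.91% and 0.314%. Smaller differences exceeded counting error. In tumor astrocyte-like nuclei, Id4 was at 85.0 CPM with and 60.9 without a vector count, 0.48 (0.27 to 0.69), and at 57.5 CPM in cycling and 77.0 in other nuclei, -0.42 (-0.63 to -0.21). In tumor OPC/COP-like nuclei, Id3 was at 45.1 CPM with and 32.5 without a vector count, 0.48 (0.18 to 0.77), and Olig1 at 42.7 CPM in cycling and 31.9 in other nuclei, 0.42 (0.14 to 0.71). By cycling, Id2 in OPC/COP-like nuclei was at 0.38 (0.13 to 0.64) and Id1 in astrocyte-like nuclei at -0.36 (-0.69 to -0.03). Each ratio can be placed by the percent of all genes in its comparison that lay below it. This was 98.3% (vector count) and 5.06% (cycling) for Id4, 95.8% for Id3, 87.6% for Olig1, 85.9% for Id2 and 7.24% for Id1. The share of all genes past counting error was not computed, so these differences cannot be called particular to these genes. Vector-bearing nuclei had a median of 8972 UMIs against 7501, and cycling nuclei 9917 against 7046; the part of depth was not tested.

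Between genotypes, 1 library stands against 1, so genotype, animal and library cannot be told apart. The neurons differed as well. A cluster with Slc6a3 and Slc18a2 among its leading genes had 130 nuclei in Foxr2 p53LOF and 0 in Foxr2 alone. The largest cluster with Slc17a7 among its leading genes had 16 and 939. Whether the brain regions sampled differed, and the part of this in the ratios, was not tested. Vector-bearing cells of Foxr2 alone could not be separated by vector peaks, of which the library had none. Its GFP RNA was at 150 CPM in astrocyte-like, 100 in OPC-like, 58.3 in oligodendrocyte-like and 19.2 in neuron-like nuclei. Foxr2 RNA was at 19.2, 8.70, 6.36 and 2.57 CPM in the same order. In oligodendrocyte-like nuclei, Olig1 was at 86.6 CPM in Foxr2 p53LOF and 181 in Foxr2 alone, -1.06 (-1.25 to -0.88), beside 20.6% of 9706 genes lower and 13.2% higher. Olig2 was at 35.6 and 32.6 CPM, 0.13 (-0.23 to 0.48). These oligodendrocyte-like nuclei had medians of 2451.5 and 1172 UMIs, and the part of depth was not tested. In OPC-like nuclei, Id2, Hes6 and Hes1 were counted as lower in Foxr2 p53LOF, beside 25.1% of 10824 genes lower and 11.2% higher. The log2 ratio was -1.75 (-2.97 to -0.69) for Id2 and -2.33 (-7.82 to 0.63) for Hes6, from 1 against 7 UMIs. Hes1 had 0 against 8 UMIs. Its 17.4 CPM in Foxr2 alone is less than 2 times the 11.2 CPM that the exact interval reaches in Foxr2 p53LOF. In astrocyte-like nuclei, Id1, Id3 and Hes1 were lower, beside 28.2% of 11004 genes, with log2 ratios of -1.79 (-3.70 to -0.38), -1.32 (-2.05 to -0.67) and -1.46 (-3.78 to 0.16). In neuron-like nuclei, Hes1 and Id2 were lower, at -3.16 (-3.61 to -2.74) and -1.60 (-1.84 to -1.37), beside 18.9% of 10602 genes, and different clusters made up the neuron-like class of each library.

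Of the 22 other genes of the Notch pathway, 13 reached 10 CPM in tumor or host glia, of which 10 were past 2-fold higher and 0 lower in tumor glia, beside 24.9% of all genes higher and 10.6% lower, with a median log2 ratio of 1.52. The receptors Notch1 (158 against 28.7 CPM, 2.46) and Notch3 (16.2 against 3.24, 2.32), the Notch glycosyltransferase Lfng (26.4 against 4.53, 2.54) and the coactivator Maml3 (402 against 93.4, 2.11) had the widest ratios. Against like host classes, 3 of 13 were higher and 3 lower in OPC/COP-like nuclei, and 4 of 15 higher and 3 lower in astrocyte-like nuclei, near the shares of all genes (27.5% and 15.5%, and 25.5% and 16.6%). Between the tumor classes, 7 of 13 were lower and 1 higher in OPC/COP-like nuclei, beside 10% of all genes lower and 8.68% higher.

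Of the 21 genes of the BMP list, 13 reached 10 CPM, 6 were higher and 1 lower in tumor glia, beside 24.9% of all genes higher and 10.6% lower, with a median of 0.86. Against like host classes, 4 of 13 were higher and 1 lower in OPC/COP-like nuclei, and 4 of 13 higher and 0 lower in astrocyte-like nuclei, beside 27.5% of all genes higher and 15.5% lower in the former and 25.5% and 16.6% in the latter comparison. Between the tumor classes, 3 of 14 were higher and 5 lower in OPC/COP-like nuclei, with a median of -0.25, beside 8.68% of all genes higher and 10% lower. The 4 genes with the widest ratios over host glia were unequal between the tumor classes. The ligand gene Bmp4 was at 55.0 CPM in OPC/COP-like and 1.26 in astrocyte-like tumor nuclei, and Bmp2 at 90.2 and 6.39. The receptor gene Bmpr1b was at 37.3 and 382 CPM, and the inhibitory Smad6 at 3.36 and 20.9. Over host glia their log2 ratios were 3.82, 2.56, 2.60 and 3.84.

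Of 14 E proteins and other bHLH genes, 5 reached 10 CPM, 2 were higher and 1 lower, beside 24.9% of all genes higher and 10.6% lower. The E proteins Tcf4 (3194 against 1211 CPM, 1.40) and Tcf12 (1838 against 985, 0.90) are dimer partners of bHLH factors and bound by Id proteins. Bhlhe40 (1.65) was higher and Bhlhe41 (-1.21) lower. Against like host classes, 1 of 6 genes of this list was higher and 2 lower in OPC/COP-like nuclei, with a median of 0.02. In astrocyte-like nuclei 2 of 5 were higher and 1 lower, with a median of 0.80. The shares and the median of all genes in these comparisons are given with the next list. Between the tumor classes, 0 of 4 were higher or lower. Of 10 oligodendrocyte lineage partners, 1 was higher and 3 were lower in tumor than in host glia, with a median of -0.71. Over host OPC-like nuclei, 4 of 10 were higher and 1 lower, with a median of 0.93, beside 27.5% of all genes higher and 15.5% lower and a median of 0.36. Over host astrocyte-like nuclei 0 of 8 were higher or lower, with a median of 0.24, beside 25.5% of all genes higher and 16.6% lower. In tumor over host glia, Sox9, a gene of glial precursors and astrocytes, was higher (1.51), and St18 (-3.73), Myrf (-2.18) and Zfp536 (-1.98), genes of differentiating oligodendrocytes, were lower. Between the tumor classes, 7 of these 10 partners were higher in OPC/COP-like nuclei, with a median of 2.47, beside 8.68% of all genes higher and 10% lower. The ratios there were 0.39 for Olig1 and -0.50 for Olig2.

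The genes most like each of the 9 in RNA were taken by Pearson correlation of log2(CPM + 10) over 17 clusters by library, as a description of pseudobulks that share their libraries. Id1 and Id3 were each other's nearest gene (r = 0.973), followed by the astrocyte genes Acsbg1 and Mlc1 for Id1 and by Sox9 and Acsbg1 for Id3. Id4 was nearest to Plscr2, Ttpa and Mlc1 (0.939 to 0.948). Olig1 was nearest to Pllp, Errfi1 and Gjc3 (0.950 to 0.955), of which Pllp and Gjc3 are myelin genes, and Olig2 to Spry1, Cobll1 and Prkcq (0.907 to 0.919). The nearest genes were less alike for Id2 (Mcur1, Kctd5 and Abcb1b, 0.839 to 0.846), Hes1 (Fap, Vxn and Rab6a, 0.816 to 0.882), Hes6 (Mettl6, Lman1 and 1600012H06Rik, 0.861 to 0.882) and Hes5 (Ap3m2, E330013P04Rik and Lamc1, 0.80 to 0.842).

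Olig1 overlaps Gm15966, Hes5 overlaps Gm20421, and Id4 overlaps A330033J07Rik and Gm49291, all on the opposite strand. Whether the counting used strand is not given in the sources used here, so reads of these genes may be shared with their partners.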

How the data were processed

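RNA and ATAC counts of 1 library per genotype were compared. The deposited values are counts: UMIs per gene and ATAC events per peak in each barcode, produced by the authors using Cell Ranger ARC 2.0.0 on mm10 plus vector sequences, with peaks listed per library. Nuclei were filtered after the limits of the study (at most 5% mitochondrial UMIs, at least 400 genes, and upper limits per library), with peak counts divided by 2 standing in for ATAC fragments, and doublets called by Scrublet (353 and 540) were removed. The rest was clustered jointly (scanpy 1.11.5, Leiden resolution 0.5) without the 9 genes, the pathway lists, Mki67, Top2a, Foxr2 and vector features, and a cluster of mixed markers was split once. Of the barcodes, 140 occurred in both libraries.

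Counts were summed per class and scaled to CPM. Intervals are exact at 95% (Poisson, Clopper-Pearson, or conditional binomial for ratios) and cover counting error only. The code for ratios and intervals was checked on simulated counts. Named genes were the 9, up to 4 per pathway list with the widest ratio, and the 3 most alike. Members and lists were chosen with earlier results of these data known. Alternatives covered filters, clustering, the tumor rule, scaling, thresholds and promoter windows.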

Additional observations from a re-analysis of the deposited data

How the results depend on the processing

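In either direction, the count of the 9 genes past 2-fold was 6 in tumor over host glia, 2 between astrocyte-like nuclei and 3 between the tumor classes. Between genotypes it was 1, 3 and 2 in oligodendrocyte-like, astrocyte-like and neuron-like nuclei. Shares of all genes were not computed for the altered groups and thresholds, so changes in these counts cannot be read as changes of these genes alone. With tumor clusters called by Foxr2 RNA, 46 astrocyte-like nuclei were tumor and 1296 host, and the counts were 1 in tumor over host glia, 7 between the tumor classes, 5 in astrocyte-like nuclei between genotypes and 0 at promoters. Hes1 (-0.38), Id1 (-0.63), Id2 (-0.33), Id3 (-0.51) and Id4 (-1.28) then turned negative in tumor over host glia, as did Olig2 between astrocyte-like nuclei (-0.50); the move of the large cluster to the host side is that rule's own construction. With the libraries clustered separately, the counts were 3 in tumor over host glia, 1 between astrocyte-like nuclei, where Olig1 turned to -1.20, and 5 between the tumor classes. Between astrocyte-like nuclei the count was 1 with doublets kept, with vector-bearing tumor nuclei alone or without the small tumor cluster, 4 at 1.5-fold and 5 over Foxr2 alone. Between the tumor classes it was 5 with peak limits not divided by 2 and at 1.5-fold, and 1 as a mean over nuclei. In oligodendrocyte-like nuclei between genotypes it was 2 at resolution 1, as a mean over nuclei, at 1.5-fold and with no filter on low values, which gave 5 in neuron-like nuclei. With tumor clusters called by Foxr2 RNA, Olig1 between the tumor classes went from 0.39 to -1.26. In the splits of tumor glia by cycling and by the vector count, no gene that was compared was past 2-fold under any alternative run, but 8 and 5 single values moved beyond their counting intervals, among them Id4 by the vector count, from 0.37 to -0.41 with Foxr2 RNA. At promoters 14 values moved. Between the tumor classes 33 values moved, in tumor over host glia 13 moved and 5 reversed, and between astrocyte-like nuclei 7 moved and 2 reversed. The cause of these other changes was not tested. No value was given against host OPC-like nuclei with peak limits not divided by 2 (0 nuclei) or against host astrocyte-like nuclei at resolution 1 (5 nuclei). No paired analysis was possible because 1 library per genotype had counts here. Leaving out a replicate was not possible for the same reason, and under 100 nuclei in the host OPC-like and astrocyte-like classes limit the depth.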
